A study of Mus musculus with 12 samples.

Results

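Interferon-stimulated genes are genes whose transcription rises when a cell senses interferon. The set described here lists 40 of them. A member was measured by the probe set that names it and no other gene. Where a gene had several, the probe set with the highest mean log2 intensity over the 12 arrays was used. Of the 40 genes, 37 had a probe set of their own and 36 passed the low-value filter, among 22180 genes on the array and 17860 past the filter. Mx1 had a probe set but stayed under the filter. Gbp2 and Dtx3l were only on probe sets shared with another gene, and no probe set was found for Ifi44 in the annotation used here.

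The cells were mouse embryonic fibroblasts from E13.5 embryos of C57Bl/6 and 129X1/SvJ background, with the genotype Col1a1::tetOP-OKSM ; R26-M2rtTA. The first allele is a doxycycline-inducible cassette for Oct4, Klf4, Sox2 and c-Myc, and the second is the transactivator that doxycycline switches on. Cells of all groups carried both alleles, were infected with a retroviral hairpin vector, received doxycycline and grew in ESC medium with serum and LIF. The 4 groups of 3 arrays were the Renilla hairpin (control) and the Chaf1a hairpin (knockdown), each at day 3 and day 6. The product of Chaf1a is the largest part of CAF-1, a chaperone that places histones on newly copied DNA. The study has no uninfected group and no group without doxycycline, so responses to infection and to the factors could not be measured. Whether the replicates are separate embryos or separate cultures is not in the labels, so p-values measure only the spread between these samples.

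Type I interferons act on the receptor chains Ifnar1 and Ifnar2, whose kinases Jak1 and Tyk2 pass the signal on by phosphorylation. Stat2 and Irf9 belong to the complex that then binds the interferon-stimulated response element in target promoters. The targets include sensors of foreign RNA and DNA, proteins that block viral entry, translation and release, and enzymes that attach or remove the ubiquitin-like protein Isg15. Fibroblasts both make interferon beta and respond to it. The measurements come from whole cultures, in which fewer cells of a type and less RNA per cell cannot be told apart.

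Of 10 fibroblast genes 9 passed the filter, with a summed intensity of 20687 to 24019 over the 12 arrays. Passing the filter does not mark a cell type, because 17860 of 22180 genes and 11 of 12 macrophage and leukocyte genes passed as well. The summed intensity of that second list was 1143 to 1470. Chaf1a was lower in the knockdown by a log2 fold change of -0.29 at day 3 and -0.12 at day 6, and its partner Chaf1b by -0.43 and -0.20, none of which passed the test (adjusted p = 0.697 to 0.999, limma). The replicate 2 arrays of all 4 groups had Xist, the RNA of the inactive X chromosome, at 9.17 to 9.74 on the log2 scale, against 3.77 to 4.09 in the other arrays. The Y-linked gene Kdm5d was at 4.11 to 4.38 in the replicate 2 arrays and at 7.42 to 7.89 in the others. By these genes the replicate 2 arrays held female cells and the other arrays male cells. Replicate 2 of all 4 groups thus had a different source of cells from replicates 1 and 3, and whether replicates 1 and 3 shared a source is not known.

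A single library stood apart before any comparison was made. In replicate 2 of the day 3 knockdown, 30 of the 36 members had their highest value of the 12 arrays, where 7.3% of all genes did. Each of the other 11 arrays held the highest value of 0 to 2 members. The median member lay 0.65 log2 units above its median over the 12 arrays there, and between -0.08 and 0.04 in the other 11 arrays, while the median over all genes lay between -0.0066 and 0.0049 in every array. All 36 members were above the mean of the other 2 day 3 knockdown arrays, by a median of 0.64 and a range of 0.14 to 2.74. Because these values picked out the array, they are given without a test, and the medians and calls of the fitted comparisons that use it are given with and without it.

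**Figure D1:**
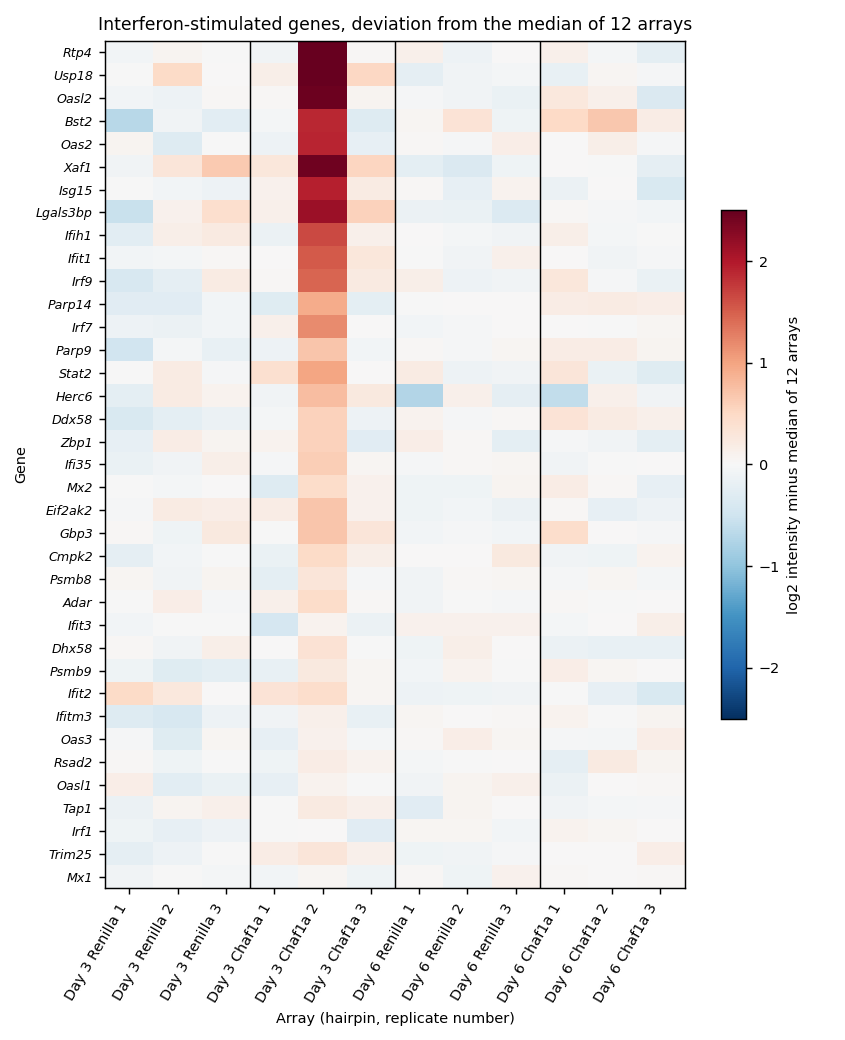
Colour shows each member's log2 intensity minus its median over the 12 arrays, with genes as lines and arrays as columns, grouped by day and hairpin. Genes are ordered by how far replicate 2 of the day 3 Chaf1a hairpin lies above the other 2 arrays of its group; the colour scale ends at 2.5. That column is red for most genes, and 30 of the 36 members past the filter are highest there.

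A difference of at least 1 log2 unit above every other array was seen for 19 of 17860 genes in that library, or 0.106%. Of these 19 genes, 12 were members: Rtp4, Usp18, Oasl2, Xaf1, Oas2, Isg15, Lgals3bp, Ifih1, Ifit1, Bst2, Irf9 and Irf7. Another 5 were interferon-stimulated genes of a wider list, named here after their values were seen: Ifi27, Gbp7, Apol9b, Oas1b and Irgm1. Of the remaining 2, 1 was Lilrb4a, an inhibitory receptor of myeloid cells, also named after its value was seen. No gene lay 1 log2 unit or more below every other array there, and the other 11 arrays each held 0 or 1 gene that far above the rest.

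The largest excess over every other array, among all 17860 genes, belonged to Rtp4, a transmembrane chaperone that restrains RNA viruses and modulates the interferon response. Its log2 intensity in replicates 1, 2 and 3 was 5.24, 5.38 and 5.29 in day 3 controls and 5.23, 8.02 and 5.34 in day 3 knockdown arrays. At day 6 it was 5.44, 5.18 and 5.32 in controls and 5.43, 5.25 and 5.07 in knockdown arrays. The other 11 arrays fall within a narrow range, and replicate 2 of the day 3 knockdown lay 6.01-fold above the highest of them.

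The next largest excess was that of Usp18, an enzyme of the Isg15 system. Isg15 is a ubiquitin-like protein that is attached to other proteins, and Usp18 removes it and also dampens signalling at Ifnar2. Usp18 was at 5.63, 6.13 and 5.65 in day 3 controls and at 5.79, 8.61 and 6.16 in day 3 knockdown arrays. At day 6 it was at 5.41, 5.56 and 5.59 in controls and at 5.46, 5.70 and 5.61 in knockdown arrays. The groups overlapped at both days, and the single high array was 5.45-fold above the next. Isg15 was at 5.36, 5.31 and 5.24 in day 3 controls and at 5.47, 7.32 and 5.58 in day 3 knockdown arrays. The day 6 values were 5.39, 5.16 and 5.46 in controls and 5.22, 5.38 and 4.99 in knockdown arrays. All 3 day 3 knockdown arrays were above all 3 controls for Isg15, with replicates 1 and 3 above by little, and the day 6 groups overlapped. Herc6, the main ligase for Isg15 in mice, was at 7.97 in the high array and at 6.46 to 7.43 in the others. Trim25, a ubiquitin ligase that acts on the RNA sensor RIG-I, and the PARP family members Parp9 and Parp14, which add ADP-ribose or support antiviral signalling, completed the 6 measured members of this group. All 6 were highest in that array, with a median of 0.99 above the other 2 knockdown arrays.

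Oasl2, of the family of oligoadenylate synthetases and their relatives that sense double-stranded RNA, was at 4.45, 4.39 and 4.54 in day 3 controls and at 4.55, 6.98 and 4.59 in day 3 knockdown arrays. At day 6 it was at 4.49, 4.42 and 4.36 in controls and at 4.78, 4.65 and 4.15 in knockdown arrays. Of the 4 measured family members, 2 shared this pattern and 2 did not. Oas2, which makes the activator of the nuclease RNase L, was at 7.30 in the high array against 5.08 to 5.56 elsewhere. Oas3, its neighbour on chromosome 5, was at 6.03 there and ranged from 5.62 to 6.09 in the others. Oasl1, which represses translation of Irf7, was at 5.12 there and at 4.77 to 5.20 in the others. So Oas3 and Oasl1 lay inside the range of the other arrays and Oas2 and Oasl2 lay above it.

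The Ifit and Ifitm genes split in the same way. Ifit1, which binds viral RNA caps, was at 5.57, 5.59 and 5.66 in day 3 controls and at 5.64, 7.16 and 5.92 in day 3 knockdown arrays. At day 6 it was at 5.62, 5.55 and 5.76 in controls and at 5.64, 5.55 and 5.60 in knockdown arrays, close to the day 3 controls. Ifit3, a partner of Ifit1 encoded near it on chromosome 19, was at 6.38, 6.45 and 6.45 in day 3 controls and at 6.03, 6.54 and 6.32 in day 3 knockdown arrays. Its day 6 values were 6.56, 6.56 and 6.56 in controls and 6.40, 6.46 and 6.60 in knockdown arrays. The high array was 2.36-fold above any other for Ifit1, and for Ifit3 it was the fifth highest of 12. Ifit2, the third of these RNA-binding genes, was at 5.28 there and at 4.45 to 5.30 in the others. Ifitm3, which blocks fusion of viruses in endosomes, was highest there at 12.07, with the others at 11.54 to 12.05. Several of these genes have near-identical copies in the mouse, and cross-hybridisation between copies was not tested.

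**Figure D2:**
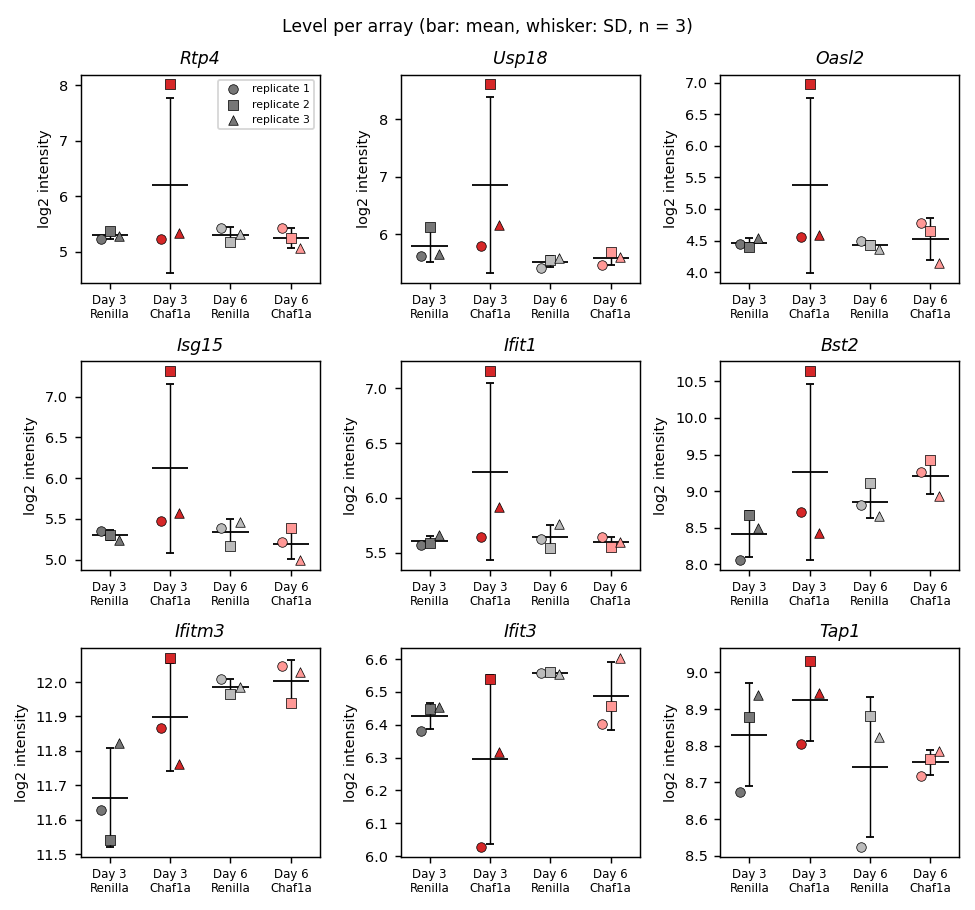
Each panel plots the log2 intensity of 1 gene (vertical axis, its own scale in each panel) in the 4 groups. Points are arrays, with circle, square and triangle for replicates 1, 2 and 3, and the bar and whisker give the mean and SD of 3. The square of the day 3 Chaf1a hairpin lies far above all other points for Rtp4, Usp18, Oasl2, Isg15, Ifit1 and Bst2, and inside or close to them for Ifitm3, Ifit3 and Tap1.

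Among the other effectors, Bst2, which tethers budding virus particles to the cell surface, was at 8.06, 8.67 and 8.50 in day 3 controls and at 8.71, 10.64 and 8.43 in day 3 knockdown arrays. At day 6 it was at 8.81, 9.11 and 8.66 in controls and at 9.26, 9.43 and 8.94 in knockdown arrays. Apart from the high array, the top 2 values of Bst2 were in day 6 knockdown arrays. Lgals3bp, a secreted glycoprotein that binds galectins, was at 10.68 in the high array and at 7.99 to 9.11 in the others. Xaf1, a gene tied to apoptosis, was at 9.43 against 6.63 to 7.64. Both were clear of the other arrays, although those already differed among themselves by more than 1 log2 unit. Ifi35, a regulator of innate signalling, was at 8.67 against 7.88 to 8.20, and Cmpk2, a mitochondrial nucleotide kinase, at 6.04 against 5.33 to 5.81. Rsad2, also called viperin, an enzyme that makes a chain-terminating nucleotide, was at 5.52 and ranged from 5.10 to 5.55 in the others. It is the exception in this group, with 6 of 7 members highest in that array. The GTPases Mx2 and Gbp3 were at 4.78 against 4.01 to 4.51 and at 5.23 against 4.44 to 4.98. Mx1, a GTPase that many laboratory strains carry in a defective form, had 3.70 in that array and ranged from 3.55 to 3.75 elsewhere, below the filter in all 12.

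The factors that carry the interferon signal were also high there. Irf9, the DNA-binding partner of Stat2, was at 6.88, 7.05 and 7.48 in day 3 controls and at 7.31, 8.73 and 7.49 in day 3 knockdown arrays, with day 6 arrays at 7.10 to 7.56. Irf7, which drives interferon alpha genes, was at 5.91, 5.89 and 5.97 in day 3 controls and at 6.16, 7.22 and 6.04 in day 3 knockdown arrays, with day 6 arrays at 5.97 to 6.09. Stat2 was at 8.55 in the high array and at 7.26 to 7.97 in the others. Irf1, which responds more to interferon gamma, was the fourth of these factors and lay inside the other arrays: it was at 6.54 there and ranged from 6.25 to 6.63 elsewhere. All 6 sensors were highest in that array. Ifih1, the MDA5 sensor of long double-stranded RNA, was at 7.99 against 6.07 to 6.55. Ddx58, the RIG-I sensor of RNA ends, was at 8.71 against 7.75 to 8.47, and Eif2ak2, the PKR kinase that halts translation, was at 8.96 against 8.07 to 8.49. Zbp1, Adar and Dhx58, which sense, edit or regulate the sensing of nucleic acid, lay 0.20 to 0.38 above the next array. The antigen-processing members differed little: Psmb8 and Psmb9, subunits of the immunoproteasome, and the peptide transporter Tap1 were above the other 2 knockdown arrays by 0.16 to 0.45.

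Promoters are shown for Isg15 and Bst2, which were high in that array, and for the neighbours Ifit1 and Ifit3, of which 1 was high and 1 was not. The sequences are the 180 bases before the annotated start in RefSeq GRCm38.p6, 5′ to 3′ on the gene's strand, and capitals mark the response element searched for. That motif was GAAANNGAAA or its reverse complement on either strand, and overlapping copies were counted separately. Isg15 lies at chr4:156200819-156200998 on the minus strand, Bst2 at chr8:71537473-71537652 on the minus strand, Ifit1 at chr19:34640709-34640888 and Ifit3 at chr19:34583349-34583528, both on the plus strand.
Isg15: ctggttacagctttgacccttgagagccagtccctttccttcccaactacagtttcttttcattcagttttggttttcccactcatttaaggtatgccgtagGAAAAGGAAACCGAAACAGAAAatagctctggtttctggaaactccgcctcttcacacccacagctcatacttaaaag
Bst2: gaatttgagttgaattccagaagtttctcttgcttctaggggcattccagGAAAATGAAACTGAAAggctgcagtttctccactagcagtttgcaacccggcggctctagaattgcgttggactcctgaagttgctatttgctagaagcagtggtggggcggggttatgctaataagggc
Ifit1: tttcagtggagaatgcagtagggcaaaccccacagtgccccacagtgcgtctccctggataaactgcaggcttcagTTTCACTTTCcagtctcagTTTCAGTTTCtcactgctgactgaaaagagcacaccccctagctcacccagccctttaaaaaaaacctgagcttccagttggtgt
Ifit3: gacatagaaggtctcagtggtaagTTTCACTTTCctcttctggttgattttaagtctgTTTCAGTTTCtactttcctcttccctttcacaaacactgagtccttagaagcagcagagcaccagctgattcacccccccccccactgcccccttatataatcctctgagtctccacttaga
Isg15 holds 3 overlapping copies from -78 to -57 relative to its start, and Bst2 holds 2 overlapping copies from -130 to -115. Ifit1 and Ifit3 each hold 2 separate copies, and the letters of the 2 copies are the same in both genes.

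A promoter window of 250 bases before to 50 after a start was given for 31 of the 40 members. The 9 without one were Dhx58, Zbp1, Oas2, Mx1, Mx2, Rtp4, Usp18, Parp9 and Parp14. The medians and ranges below therefore leave out Rtp4 and Usp18, whose excesses of 2.74 and 2.63 were the largest of all members. The response element was in 13 of them, or 41.9%, against 3.99% of 27025 genes with such windows. The gamma-activated site, TTCNNNGAA, which reads the same on both strands, was in 8, or 25.8%, against 9.55% of those genes. Eif2ak2, Ifitm3 and Bst2 held both motifs, which overlapped in Ifitm3 and Bst2. The excess of the high array over the other 2 day 3 knockdown arrays had a median of 0.60 for the 12 measured members with a response element (range 0.20 to 2.07) and of 0.47 for the 16 without one (range 0.14 to 2.41). The ranges of the 2 sets overlap over most of their length. Oasl2, Xaf1 and Lgals3bp were far above the other arrays without the motif in these windows, and Rsad2, Oas3 and Ifit3 were not with it. A match is a description of letters, not of binding.

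Most upstream genes of the pathway did not share the pattern. Of 6 interferon ligands past the filter, 1 was highest in the high array: Ifng, the type II interferon, was at 4.74 there and at 4.41 to 4.73 elsewhere. Ifnb1, interferon beta, was below the filter at 3.63, inside the range of 3.48 to 3.66 of the other arrays. Ifna2 did not pass the filter either, because it reached its array's 30th percentile in 1 array only, the high array. It was at 4.56 there, against 3.75 to 4.29 elsewhere. Of 10 receptors and kinases, 2 were highest there, Ifngr2 and Jak1, and the median member lay 0.0088 above the other 2 day 3 knockdown arrays. Ifnar1 was at 9.86 there (9.84 to 10.20 elsewhere), Ifnar2 at 9.11 (9.01 to 9.19) and Tyk2 at 7.61 (7.21 to 7.75). These 3 values lie inside the range of the other arrays, as does Irf3, the factor that switches on Ifnb1, at 7.87 (7.68 to 7.93). Among 13 genes of the induction pathway, Myd88 and Tlr3 were highest, by 0.099 and 0.035. The adaptors Mavs and Tmem173 (STING) and the DNA sensor Mb21d1 (cGAS) were inside the range of the other arrays. None of 6 negative regulators and 1 of 14 NF-kappaB targets were highest there.

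Genes beyond the members did share it. In a wider list of interferon-stimulated genes, 35 of 56 were highest in that array, with a median excess of 0.29 over the other 2 day 3 knockdown arrays. Ifi27, a small membrane protein induced by type I interferon, was at 8.48 against 6.08 to 7.11. Oas1g and Ifi204 did not pass the filter, because each reached the 30th percentile in that 1 array only. They were at 5.34 against 3.23 to 3.74 and at 4.91 against 2.99 to 3.47. The chemokines Ccl5 and Cxcl10 lay above the next array by 0.33 and 0.15. Cxcl9 and Cxcl11, chemokines of the same list, lay inside the range of the other arrays, at 4.32 (4.20 to 4.67 elsewhere) and 4.92 (4.61 to 5.41).

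Markers of other cell types were read beside this. Of 12 macrophage and leukocyte genes, 11 passed the filter. In that array 4 of the 11 (Tyrobp, Fcer1g, Itgam and Cd52) were highest, by 0.014 to 0.093 over the next array, against 7.3% of all genes. Of the 11, 7 were above the mean of the other 2 day 3 knockdown arrays, while Csf1r, Cd68, Cx3cr1 and Laptm5 were below it. Ptprc, the pan-leukocyte CD45, did not pass the filter, because it reached the 30th percentile in that 1 array only. It was also highest there, at 4.42 against 3.86 to 4.18. The summed intensity of the list was 1470 in the high array and 1429 at the lowest in its group, against 1276 to 1385 in day 3 controls, 1143 to 1231 in day 6 controls and 1214 to 1249 in day 6 knockdown arrays. The part of such cells in the result was not tested. Of plasmacytoid dendritic and B cell genes 0 of 4, of T and NK cell genes 1 of 4 and of endothelial genes 0 of 4 were highest there. The other replicate 2 arrays, which share its Xist level, had member medians of -0.08 in day 3 controls, -0.03 in day 6 controls and -0.0006 in the day 6 knockdown.

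**Figure D3:**
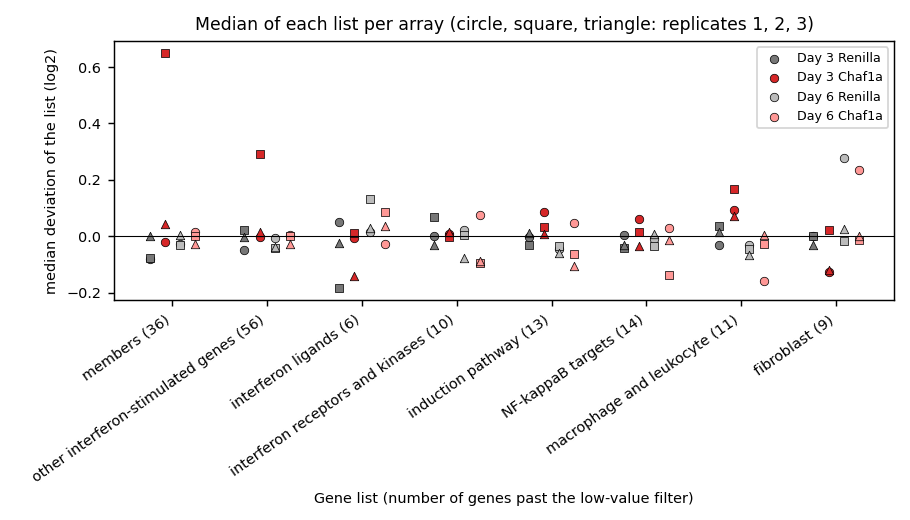
Each point is 1 array, placed by the median over a gene list of the log2 deviation from the gene's median over 12 arrays (vertical axis). Lists stand along the horizontal axis with the number of genes past the filter. The red square, replicate 2 of the day 3 Chaf1a hairpin, is at 0.65 for the members and 0.29 for other interferon-stimulated genes. It lies among the other points for ligands, receptors and kinases, the induction pathway, NF-kappaB targets and fibroblast genes. For macrophage and leukocyte genes it is at 0.17, above the other arrays, which reach 0.09.

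The first comparison asked whether the Chaf1a hairpin changed these genes at day 3. No member passed the test, and neither did any of the 17860 genes (0.0% called, limma). At an unadjusted p under 0.05 there were 10 members and 1074 genes. The median log2 fold change of the members was 0.28, with 35 of 36 above 0, against a median of -0.01 over all genes. Without replicate 2 of the knockdown the median was 0.05 with 24 of 36 above 0, still with 0 members and 0.0% of genes called, and 3 members and 1016 genes at an unadjusted p under 0.05.

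The 8 members with the largest fitted difference were Usp18, Lgals3bp, Oasl2, Rtp4, Bst2, Isg15, Xaf1 and Irf9. Usp18 differed by 1.05 on the log2 scale (SE 0.52, adjusted p = 0.847) and 0.17 (SE 0.15) without the high array. For Rtp4 the values were 0.89 (SE 0.53, adjusted p = 0.871) and -0.02 (SE 0.11). Lgals3bp had 0.95 with all arrays and 0.36 without that array, Isg15 had 0.82 and 0.22, and Irf9 had 0.71 and 0.27. Oasl2 went from 0.91 to 0.11, Bst2 from 0.85 to 0.16 and Xaf1 from 0.80 to 0.12. Each of the 8 was smaller by more than 1.5 times without the array, and all had adjusted p-values of 0.765 or higher with it. Of the other members read, Ifit1 had 0.63 with and 0.17 without the array, Irf7 0.55 and 0.18, Stat2 0.42 and 0.16, and Ddx58 0.40 and 0.17. Ifitm3 had 0.24 and 0.15, Psmb8 0.0013 and -0.15, and Ifit3 was the only member below 0 with all arrays, at -0.13 and -0.26.

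The arrays of the 2 hairpins did not overlap at day 3 for 5 of 36 members, all higher in the knockdown: Oasl2, Isg15, Irf7, Ddx58 and Trim25. That share was 10.8% over all genes. Without the high array the same 5 and Ifit3, which was lower, did not overlap, against 20.6% of all genes. Trim25 changed little when the high array was left out. It was at 8.40, 8.50 and 8.62 in day 3 controls and at 8.81, 8.93 and 8.76 in day 3 knockdown arrays. At day 6 it was at 8.53, 8.54 and 8.60 in controls and at 8.65, 8.64 and 8.79 in knockdown arrays. All knockdown arrays lay above all controls of the same day, by a log2 fold change of 0.32 at day 3 (SE 0.074, adjusted p = 0.697) and 0.14 at day 6 (SE 0.074, adjusted p = 0.999). Without the high array the day 3 value was 0.27 (SE 0.080, adjusted p = 0.816), so neither setting passed the test.

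**Figure D4:**
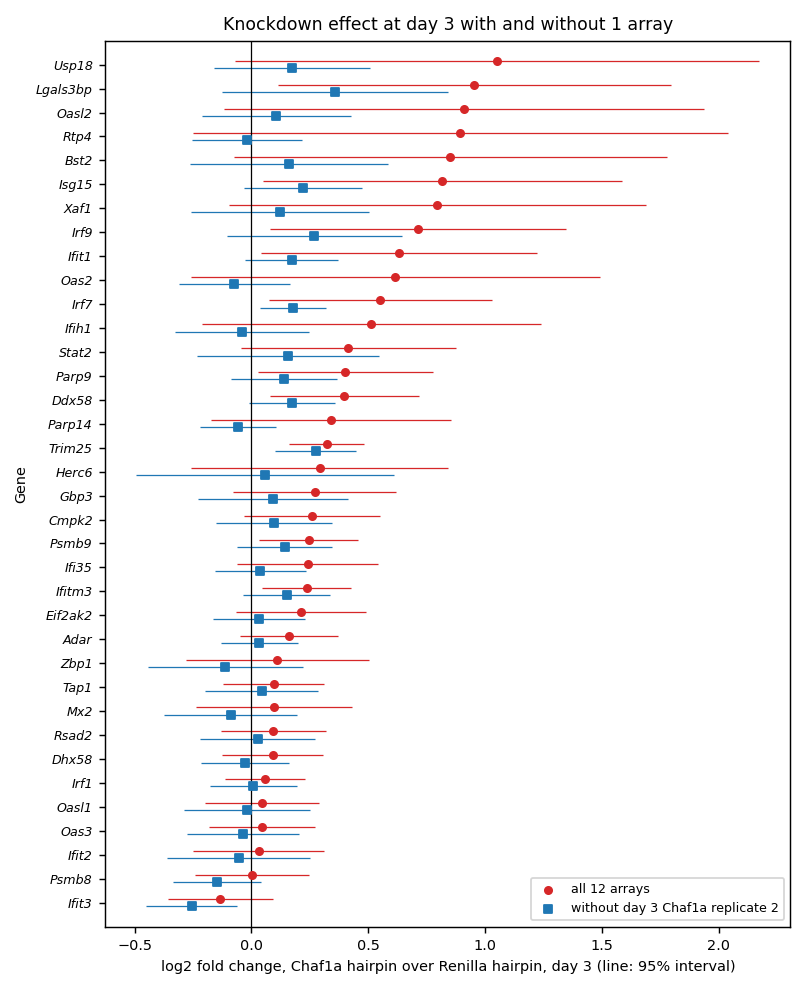
The horizontal axis gives the log2 fold change of the Chaf1a hairpin over the Renilla hairpin at day 3 for each of 36 members, with its 95% interval. Red circles use all 12 arrays and blue squares leave out replicate 2 of the day 3 Chaf1a hairpin. The red points reach 1.05 and the blue ones lie between -0.26 and 0.36, and no gene passed the test in either.

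At day 6 the same question gave small differences. No member passed the test, and 7 genes (0.0392%) did over the whole array, all higher in the knockdown. No member and 793 genes had an unadjusted p under 0.05. Without the high array, which enters here only through the shared estimate of the spread, 3 members and 820 genes did. The median member had a log2 fold change of 0.04, with 22 of 36 above 0, against -0.01 over all genes. The 8 largest were Bst2 at 0.35 (SE 0.43), Lgals3bp at 0.20, Ddx58 at 0.20, Gbp3 at 0.19, Dhx58 at -0.19, Parp14 at 0.19, Xaf1 at 0.17 and Isg15 at -0.14, all with adjusted p = 0.999. Bst2 was higher in the knockdown array of 3 of 3 same-number pairs, but the groups overlapped. The groups did not overlap for 7 of 36 members, against 10.6% of all genes. Higher in the knockdown were Ddx58, Adar, Lgals3bp, Trim25, Parp9 and Parp14, and Dhx58, which tunes the RIG-I sensors, was lower. Ddx58 and Trim25 were in this set on both days. The share of all genes without overlap on both days was not counted, so the pair is given as a description only.

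Whether the knockdown effect differed between days was tested as an interaction. No member and no gene passed (0.0% called), and at an unadjusted p under 0.05 there were 0 members and 910 genes, and 2 members and 809 genes without the high array. The median over members was -0.22 with all arrays and -0.02 without the high array. Isg15 had a difference of -0.96 (SE 0.50, adjusted p = 0.981), from 0.82 at day 3 to -0.14 at day 6, and -0.36 without that array.

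The change from day 3 to day 6 was then read within each hairpin. Within controls, Ifitm3 rose. It was at 11.63, 11.54 and 11.82 at day 3 and at 12.01, 11.96 and 11.99 at day 6. All day 6 arrays were above all day 3 arrays, with a rise of 0.32 on the log2 scale (SE 0.087, adjusted p = 0.024, limma). It was the only member called of 36, against 17.6% of all genes. An unadjusted p under 0.05 was seen for 3 members, and for at least the 17.6% of all genes that were called. The call was lost, at 0.26 to 0.33 on the log2 scale, without replicate 1 or 2 of the day 3 controls or without any 1 of the day 6 controls (adjusted p = 0.054 to 0.095). It was also lost when replicate number 1, 2 or 3 was left out of all groups, at 0.27 to 0.40 (adjusted p = 0.052 to 0.169). The median member changed by 0.03 on the log2 scale and the median gene by 0.01.

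With the replicate number as a block, which compares same-number arrays, 3 members were called in controls, against 18.9% of all genes. Ifitm3 again rose (adjusted p = 0.034), and Ifit2 fell by 0.35 (adjusted p = 0.027) and Herc6 fell by 0.29 (adjusted p = 0.042). Ifit2 was at 5.30, 5.09 and 4.84 at day 3 and at 4.70, 4.72 and 4.75 at day 6, with no overlap. Herc6 was at 6.95, 7.40 and 7.28 at day 3 and at 6.46, 7.33 and 6.96 at day 6. Its groups overlapped, and each day 6 array was below the day 3 array of its own number. Without the high array, which enters this comparison only through the shared estimate of the spread, 4 members were called, against 17.0% of all genes. Ifitm3 (adjusted p = 0.013), Ddx58 (0.29, adjusted p = 0.022) and Parp14 (0.22, adjusted p = 0.045) rose, and Xaf1 fell by 0.53 (adjusted p = 0.039). With the block and without that array 6 were called, against 18.5% of all genes: Ifitm3, Ddx58 and Bst2 rose and Ifit2, Xaf1 and Herc6 fell, while Parp14 was at 0.22 (adjusted p = 0.052).

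Within the knockdown, Eif2ak2 fell by 0.43 (SE 0.13, adjusted p = 0.037, limma) and Ifit2 fell by 0.48 (SE 0.13, adjusted p = 0.023). These were 2 of 36 members, against 17.9% of all genes. An unadjusted p under 0.05 was seen for 9 members, and at least the 17.9% of all genes that were called had one too. Eif2ak2 was at 8.46, 8.96 and 8.39 at day 3 and at 8.31, 8.07 and 8.16 at day 6. Ifit2 was at 5.17, 5.28 and 4.88 at day 3 and at 4.83, 4.62 and 4.45 at day 6. For both genes all day 6 arrays were below all day 3 arrays, with the highest day 3 value in replicate 2. Without that array Eif2ak2 was at -0.25 (adjusted p = 0.091) and Ifit2 at -0.39 (adjusted p = 0.085), past the threshold in neither case. Both calls were also lost without replicate 2 or replicate 3 of the day 6 knockdown (adjusted p = 0.065 to 0.124), and that of Ifit2 without replicate 1 of the day 3 knockdown (adjusted p = 0.072). Leaving replicate number 2 out of all groups ended both calls (adjusted p = 0.23 for Ifit2 and 0.25 for Eif2ak2), and leaving out number 1 or 3 ended that of Eif2ak2 (adjusted p = 0.057 and 0.108). With the replicate block 3 members fell, against 19.6% of all genes called: Eif2ak2 (adjusted p = 0.032), Ifit2 (adjusted p = 0.0057) and Herc6, by 0.50 (adjusted p = 0.0028). The median member was at -0.22 with all arrays and -0.03 without it.

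Leaving the high array out, with no block, gave 4 members that rose in the knockdown and none that fell, against 14.3% of all genes. The array was picked out by the members' own values, and leaving it out lowers the day 3 knockdown mean of all 36 members. The calls without it, here and within controls, are therefore descriptions and not support for a change with time. Parp14, a mono-ADP-ribosyl transferase, was at 5.44 and 5.49 in the 2 remaining day 3 arrays and at 5.93, 5.94 and 5.91 at day 6. Its log2 fold change was 0.46 (SE 0.074, adjusted p = 0.0024). Bst2 was at 8.71 and 8.43 and then at 9.26, 9.43 and 8.94, a rise of 0.64 (SE 0.19, adjusted p = 0.047), where the fit on all arrays had -0.05. In this fit replicate 2, which had a different source of cells, is in the day 6 knockdown but not in the day 3 knockdown. Bst2 was highest in replicate 2 in every group, so the unpaired rise does not separate time from source. Ifit3 rose by 0.32 (adjusted p = 0.037) and Ddx58 by 0.31 (adjusted p = 0.031). With the replicate block as well, these 4 rose and 3 fell, against 15.5% of all genes called. Usp18 fell by 0.47 (adjusted p = 0.021), Herc6 by 0.41 (adjusted p = 0.017) and Ifit2 by 0.39 (adjusted p = 0.031). In each of the 4 genes that rose, all day 6 arrays lay above both remaining day 3 arrays. Parp14 and Ddx58 were called in the same direction within controls without that array, and Bst2 had 0.45 there (adjusted p = 0.104). The day 3 comparison of hairpins and these time comparisons share their day 3 arrays.

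**Figure D5:**
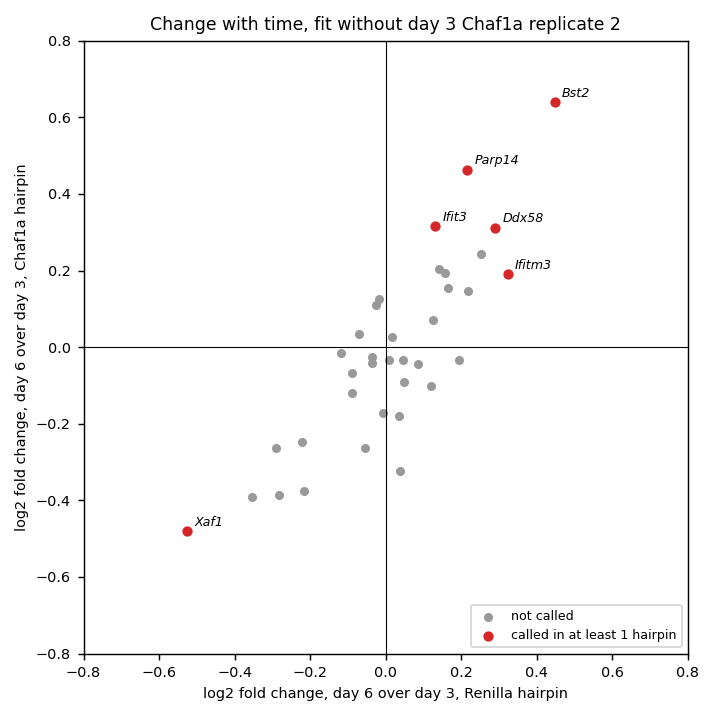
Each point is 1 of 36 members, placed by its log2 fold change from day 3 to day 6 with the Renilla hairpin (horizontal axis) and with the Chaf1a hairpin (vertical axis), both from the fit without replicate 2 of the day 3 Chaf1a hairpin. Red points passed the test within at least 1 hairpin: Bst2, Parp14, Ifit3, Ddx58 and Ifitm3 above 0 in both, and Xaf1 below 0 in both. The array left out was picked by the members' own values, so these calls are descriptions.

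Other pathway genes were read for the change with time in the fit on all arrays. Over all genes 17.6% were called in controls and 17.9% in the knockdown, and the lists are read against these shares. Of the 10 receptors and kinases, 1 rose and 2 fell in controls, and 0 rose and 2 fell in the knockdown. Jak1 fell in both, by 0.21 (adjusted p = 0.030) and by 0.25 (adjusted p = 0.012). Of the 13 induction pathway genes, 2 fell in controls and 4 in the knockdown, with none rising. The DNA sensor Mb21d1 fell by 0.59 in controls (adjusted p = 0.0025) and by 0.35 in the knockdown (adjusted p = 0.035), and Mavs, the mitochondrial adaptor of RIG-I, fell by 0.23 (adjusted p = 0.021) and by 0.20 (adjusted p = 0.038). Without the high array Mb21d1 was at -0.38 in the knockdown (adjusted p = 0.059), no longer past the threshold. Of 6 negative regulators, 2 rose and 1 fell within each hairpin, with Socs3, an inhibitor of cytokine receptor kinases, up by 0.60 (adjusted p = 0.000222) and 0.50 (adjusted p = 0.000745). None of the 6 ligands was called. In the wider list of 56 interferon-stimulated genes, 6 rose and 7 fell in controls and 2 rose and 10 fell in the knockdown. Mlkl, the effector of necroptosis, fell by 1.05 in both (adjusted p = 0.000675 and 0.000583), and Cd47, a surface signal against phagocytosis, rose by 0.53 and 0.50 (adjusted p = 0.001 and 0.0014).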

How the data were processed

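RNA from 12 samples in 4 groups of 3 was made into biotinylated cDNA and read on Affymetrix mouse arrays, as the labels' protocols state. The submitters' processing notes name RMA and version 1.3.0.187 of Expression Console, and the deposited values are the probe set intensities that the authors obtained. For RMA itself no version, and for the annotation no genome build, is given in the sources used here. They ran from 4.71 to 13421, a linear scale, and their log2 was taken. Background correction could not be varied because the deposited values were already corrected and normalised. Of 41345 probe sets, 23521 named 1 gene, 1814 several and 16010 none in the platform annotation.

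A gene was kept when it reached its array's own 30th percentile in at least 3 arrays. Differences were fitted over 17860 genes with limma 3.58.1 in R 4.3.3, using a mean per group (degrees of freedom: 8 residual, 4.37 prior). Tests were two-sided, p-values were adjusted over all genes by Benjamini-Hochberg, and the threshold was 0.05. SE stands for standard error on the log2 scale. The code of the fit was tested on simulated data with independent noise, without replicate pairing and without an array that stood apart. That test does not cover these features of the data. Tables and plots used Python 3.11.15, pandas 2.3.3 and matplotlib 3.10.9. Depth has no meaning for an array, and the number of arrays limits the precision. No scan date or batch was given.

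The members, gene lists and tests were chosen with earlier results of these data known. Fitted differences are printed for members past the threshold, the 8 largest knockdown differences on each day and a list of 13 members, as well as 13 pathway genes and, per list, up to 3 genes past the threshold and the 3 highest in the array that stood apart. Genes with Gm or Rik names are not named.

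Groups share replicate numbers. With each group's mean taken off, within the 4 comparisons of groups the 12 pairs of arrays with the same number correlated over genes (r = 0.14 to 0.37), while the other 24 pairs had r of -0.28 to -0.01. Deviations within a group cancel for each gene, so positive same-number pairs by themselves make the other pairs negative on average. Between groups that were not compared, a same-number pair was as low as 0.0006 and another pair as high as 0.0247. By the same-number pairs within the comparisons, the numbers were taken to pair the arrays, from the data and not from the labels. Alternatives were the replicate block, leaving out each array and each replicate number, other low-value filters, the mean of a gene's probe sets, repeated quantile normalisation, median centring, array weights, fits on the compared groups alone and a trended robust fit. The replicate block without the array that stood apart was added after the data were seen.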

Additional observations from a re-analysis of the deposited data

Results flagged for a closer look

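Some probe sets of members were outside the comparisons, because they are a gene's second probe set or name several genes. All 4 of them were read in replicate 2 of the day 3 knockdown, and all were above all 6 control arrays there. The share of all probe sets above the controls in that array was not counted. The second probe set of Lgals3bp was at a log2 intensity of 8.94, against 7.75 in the highest control and 7.19 to 7.75 in the other 11 arrays. The probe set naming both Gbp2 and Gbp2b, guanylate-binding GTPases, was at 7.04, against 6.59 in the highest control. The probe set naming both Dtx3l and Parp9, a ubiquitin ligase and its partner, was at 8.08, with 7.76 in the highest control and 8.0 in the highest other array. The second probe set of Ifi35 was at 6.47, against 6.33 in the highest control and 6.45 in the highest other array. The array had been picked out by its values, so these are given without a test.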

How the results depend on the processing

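The counts of members called between hairpins at day 3, at day 6 and in the interaction were 0 in every alternative run. The median member difference at day 3 was 0.0516 to 0.427 over the fits that left out arrays, lowest without day 3 knockdown replicate 2; it was 0.0775 without replicate 2 of all groups and 0.0659 with the replicate block and without that array. The median interaction was -0.388 to -0.0176 over the left-out arrays, again nearest 0 without that array. Members called from day 3 to day 6 in controls numbered 1 in all arrays, 3 with the replicate block, 2 in the fit on the compared groups, 6 with the replicate block and without that array, and 0 to 4 over the left-out arrays: 0 without day 3 control replicate 1 or 2, without any 1 day 6 control or without replicate 2 of all groups. In the knockdown the count was 2 in all arrays, 3 with the replicate block, 1 with the stricter filter, 1 in the fit on the compared groups, 7 with the replicate block and without that array, and 0 to 6 over the left-out arrays: 6, all lower, without day 3 knockdown replicate 1, 4, all higher, without replicate 2, and 0 without day 6 knockdown replicate 2 or 3. The median in the knockdown was -0.0283 with the replicate block and without that array. The change of Bst2 in the knockdown was -0.05 in all arrays and -0.47 to 0.64 over the left-out arrays; it reversed to 0.64 without that array and to 0.52 with the replicate block added. The causes of the other shifts were not tested. The block changed no call between hairpins. The interaction could not be fitted on the compared groups alone. Of the settings for single genes, 88 lost a call, 40 gained one, 2 reversed, 49 without a call changed sign by more than the SD of replicates, and 5604 kept their side of the threshold with the same sign or a smaller change of sign. The number of arrays, and the 2 left in a group when 1 is dropped, limit every count. Mx1, Ifnb1 and Ifna2 did not pass the low-value filter and were not tested.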

Other observations

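Without replicate 2 of the day 3 knockdown, the member maxima were spread over the other arrays. Replicate 1 of the day 6 knockdown held the highest value of 8 of 36 members, where 11.9% of all genes had their highest value, and replicate 3 of the day 3 knockdown held 6, where 7.0% of all genes did. Replicate 1 of the day 3 controls held the lowest value of 9 members, where 8.02% of all genes had theirs. Among the 6 arrays of day 6 alone, replicate 1 of the knockdown was highest for 15 of 36 members, against 21.8% of all genes.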
